A study of Arabidopsis thaliana with 91 samples.

Results

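Trimethylation of histone H3 lysine 4 (H3K4me3) was profiled in Arabidopsis thaliana leaves carrying the SDG2-ZF transgene, either in the wild-type Columbia-0 (Col-0) background or in the rdd triple mutant (ros1-3 dml2-1 dml3-1), in which the demethylase genes ROS1, DML2 and DML3 are mutated. The members were chosen by their labels: the 5 H3K4me3 libraries of SDG2-ZF plants, 2 of them in rdd and 3 in Col-0, out of 91 samples in the series, of which 50 had a list of peaks. SDG2-ZF joins the catalytic domain of the H3K4 methyltransferase SDG2 to the zinc finger ZF108 and is driven by the UBQ10 promoter, which is active in most cells of the plant. All plants were of the Columbia-0 ecotype and were sampled as leaf tissue at 4 to 5 weeks of age. The baseline was taken from untransformed plants: 2 H3K4me3 libraries of Col-0 and 2 of rdd. The labels sort libraries into numbered sets. The SDG2-ZF and Col-0 libraries belonged to set 1, whereas the SDG2-ZF rdd and rdd libraries came from set 6 (replicate 1) and set 7 (replicate 2), so that background and set cannot be told apart. The labels do not name the transgenic line behind each library, and p-values therefore measure only the spread between these libraries.

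H3K4me3 is deposited around the start of transcribed genes, where it accompanies active transcription. In plants, methylated cytosines are removed by ROS1 and its relatives, which cut out the base and leave it to be replaced, whereas CG methylation left in place is copied at each cell division. The best known site bound by ZF108 is the promoter of FWA, a homeodomain gene that is methylated and silent in wild-type leaves and delays flowering when it is expressed there.

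Peaks were compared as segments, a segment being a run of DNA, 100 bp or longer, that lay under peaks in every library of a background. A segment was called common when peaks of all 5 SDG2-ZF libraries covered it, and specific to one background when no peak of the other background overlapped it by 1 bp. The rdd background gave 17499 segments and the Col-0 background 16876. Of these, 16256 stretches were common, 300 segments were rdd-specific (1.71% of the rdd segments) and 115 were Col-0-specific (0.681% of the Col-0 segments). A segment was called new when no baseline library had a peak over it. New segments numbered 738 among the common ones (4.54%), 124 among the rdd-specific ones (0.709% of all rdd segments) and 49 among the Col-0-specific ones (0.29% of all Col-0 segments). These counts followed from the rule and were not tested.

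The stretches of the FWA 5' region are printed because the peaks of both backgrounds met and parted there. For each class of new segments, the middle of 2 segments is printed as an example of the DNA that carried the mark. These 2 are the segments whose peaks had the highest within-list percentile in their lowest library. All are from the plus strand of TAIR10.1, with CG dinucleotides in capitals.
FWA upstream, covered in both rdd libraries, chr4:13038140-13038359: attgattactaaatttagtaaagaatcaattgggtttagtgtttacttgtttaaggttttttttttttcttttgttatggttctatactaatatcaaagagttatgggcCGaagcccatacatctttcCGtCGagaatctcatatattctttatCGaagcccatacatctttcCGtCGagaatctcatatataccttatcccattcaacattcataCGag
FWA first intron, covered in all 5 libraries, chr4:13038418-13038510: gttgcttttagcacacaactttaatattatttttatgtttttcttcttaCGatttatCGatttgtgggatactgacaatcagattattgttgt
FWA second intron, covered in all 3 Col-0 background libraries, chr4:13038629-13038928: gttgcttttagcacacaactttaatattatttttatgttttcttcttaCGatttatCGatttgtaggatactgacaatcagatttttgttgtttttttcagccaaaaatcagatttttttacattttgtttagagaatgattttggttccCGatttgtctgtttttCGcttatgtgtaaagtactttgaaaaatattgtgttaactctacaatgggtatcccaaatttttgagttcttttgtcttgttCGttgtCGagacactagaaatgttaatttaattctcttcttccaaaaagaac
VIM4, new common, chr1:24586445-24586564: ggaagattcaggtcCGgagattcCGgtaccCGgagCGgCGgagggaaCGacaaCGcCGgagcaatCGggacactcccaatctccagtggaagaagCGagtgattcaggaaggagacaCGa
GRP23, new common, chr1:3365896-3366015: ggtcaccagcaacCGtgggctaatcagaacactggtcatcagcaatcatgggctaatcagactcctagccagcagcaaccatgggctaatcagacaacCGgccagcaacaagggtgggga
NAC046, new rdd-specific, chr3:1053932-1054051: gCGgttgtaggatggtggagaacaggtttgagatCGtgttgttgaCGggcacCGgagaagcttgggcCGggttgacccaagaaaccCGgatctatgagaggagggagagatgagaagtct
AT1G62610, new rdd-specific, chr1:23181836-23181955: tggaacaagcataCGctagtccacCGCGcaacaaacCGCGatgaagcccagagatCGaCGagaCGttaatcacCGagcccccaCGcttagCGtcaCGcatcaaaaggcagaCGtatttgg
AT5G20750, new Col-0-specific, chr5:7028061-7028180: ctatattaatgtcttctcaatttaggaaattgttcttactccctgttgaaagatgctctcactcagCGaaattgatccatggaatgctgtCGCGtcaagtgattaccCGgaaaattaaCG
AT1G07627, new Col-0-specific, chr1:18642093-18642212: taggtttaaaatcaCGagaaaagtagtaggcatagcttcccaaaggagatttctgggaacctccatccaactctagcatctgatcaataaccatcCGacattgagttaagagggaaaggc

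The upstream FWA stretch held 7 CG dinucleotides in 220 bp. A run of 38 bp occurred in it in 2 copies, at chr4:13038249-13038286 and chr4:13038294-13038331, with 3 CG dinucleotides in each copy. The first intron stretch and the start of the second intron were also near-copies, with 3 differences over 92 bp, and they shared an exact run of 41 bp. Reads from such copies can be placed in either, and the effect of this on the peak edges was not tested. CG content varied among the other examples, from 2 per 120 bp at GRP23 and AT1G07627 to 11 at VIM4 and 13 at AT1G62610.

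The baseline lists were shorter than those of SDG2-ZF plants. The SDG2-ZF libraries had 17308, 18836 and 18256 peaks and the SDG2-ZF rdd libraries 19418 and 18063, whereas the Col-0 libraries had 15370 and 15827 and the rdd libraries 16158 and 12992. Peaks covered 13.1 to 14.5 Mb in SDG2-ZF, 14 to 16 Mb in SDG2-ZF rdd, 11.9 to 12.9 Mb in Col-0, and 12.8 Mb in rdd replicate 1 but 7.44 Mb in rdd replicate 2. The peak lists hold no read totals. Totals are given by the study elsewhere, and their values were not used here. By those totals both rdd libraries and SDG2-ZF rdd replicate 1 were sequenced less deeply than each of the other 6 libraries. Depth thus moves with background and with the baseline, its part in the classes was not tested, and a segment without a peak is one where no peak was called rather than one shown to lack the mark. The tissue label was compared with marker genes: 7 to 11 of 12 photosynthesis genes and 10 of 10 housekeeping genes had a peak at their start in each of the 9 libraries, against 0 of 4 root genes, 0 or 1 of 3 pollen genes and 1 or 2 of 7 seed genes.

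FWA carried an H3K4me3 peak at its start in all 5 SDG2-ZF libraries and in none of the 4 baseline libraries, but the peak lay differently in each background. FWA (AT4G25530) occupies chr4:13038360-13042464 on the plus strand, with 10 exons and a first coding base at 13039312 in exon 3. In the Col-0 background the peaks ran from 13038276 to 13038995, from 13038243 to 13039083 and from 13038259 to 13039002, and so reached well into the second intron. In rdd the peaks ran from 13038080 to 13038510 in replicate 1, ending in the first intron, and from 13038140 to 13038667 in replicate 2, ending at the beginning of the second intron. SDG2-ZF rdd replicate 1 had a further, separate peak at 13037549 to 13037851.

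Measured from the annotated start, the downstream edge of the FWA peak was at 635, 723 and 642 bp in the 3 SDG2-ZF libraries and at 150 and 307 bp in the 2 SDG2-ZF rdd libraries. The groups did not overlap. The mean was 229 ± 111 bp (SD, n = 2) in rdd and 667 ± 48.9 bp (SD, n = 3) in the Col-0 background, a difference of -438 bp (two-sided exact permutation test, p = 0.1, the smallest that 3 against 2 libraries can give). The upstream edge lay farther from the gene in rdd, at -280 and -220 bp, than in the Col-0 background, at -84, -117 and -101 bp (exact p = 0.1). The peak was 480 ± 68.6 bp wide in rdd and 768 ± 64.1 bp wide in the Col-0 background (exact p = 0.1). The edges were chosen for comparison after their positions had been seen.

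The height of the FWA peak was also compared. Fold enrichment at the peak was 3.54, 5.69 and 3.76 in SDG2-ZF and 3.29 and 2.39 in SDG2-ZF rdd. To compare lists of different scale, each peak was ranked among all peaks of its own library, and FWA stood at the 42.8, 76.3 and 40.0 percentile in SDG2-ZF and at the 29.3 and 14.5 percentile in SDG2-ZF rdd. Both rdd libraries ranked below all 3 Col-0 background libraries, with a mean of 21.9 ± 10.4 (SD, n = 2) against 53.0 ± 20.2 (SD, n = 3), a difference of -31.2 percentile points that did not pass the test (exact permutation test, p = 0.2). Among the 17308 peaks of smallest p-value in each list, the length of the shortest SDG2-ZF list, the FWA start peak was present in 3 of 3 SDG2-ZF and in 2 of 2 SDG2-ZF rdd libraries. Among the 12992 peaks of smallest p-value, the length of the rdd replicate 2 baseline list, it was present in 3 of 3 SDG2-ZF and in 0 of 2 SDG2-ZF rdd libraries.

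The stretch covered in all 3 SDG2-ZF libraries was 720 bp long with 22 CG dinucleotides, that covered in both SDG2-ZF rdd libraries was 371 bp long with 12, and the stretch shared by all 5, chr4:13038276-13038510, was 235 bp long with 9. The FWA start peak was also read in H3K4me3 libraries of the series that were used neither for the segments nor for the baseline. Its downstream edge was at 686 and 644 bp in SunTag-SDG2 rdr6, at 654 and 618 bp in fwa and at 714 and 671 bp in fwa x rdr6, lines that either recruit SDG2 to FWA by another system or carry an unmethylated FWA. It was at 434 bp in TRBIP1-ZF replicate 1 and at 524 bp in dCAS9-MQ1v. All of these downstream edges lay beyond both SDG2-ZF rdd edges. The upstream edge was at -183 and -151 bp in SunTag-SDG2 rdr6, at -180 and -61 bp in fwa and at -146 and -105 bp in fwa x rdr6. These upstream edges lay nearer to the gene than both SDG2-ZF rdd edges, but most were outside the range of the SDG2-ZF libraries. The genes that flank FWA did not differ in presence of a peak: AT4G07405, SLK3, SLK1, MSH3 and AT4G25550 had one in all 9 libraries, and LAF1 in none of them.

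**Figure D1:**
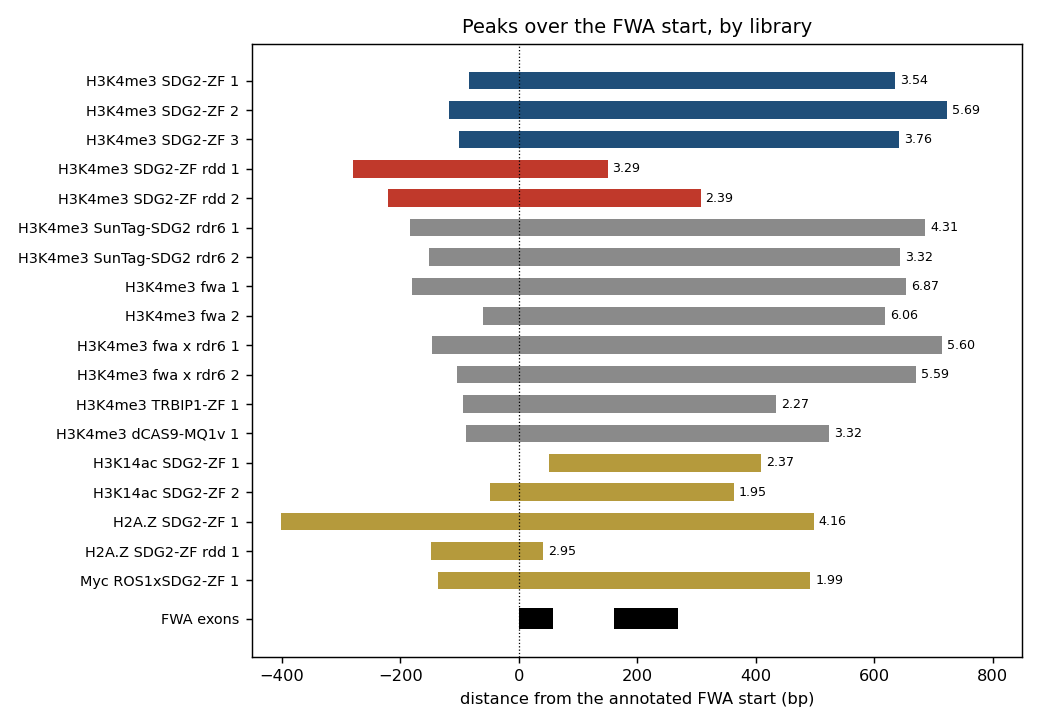
Peaks over the FWA start in each library that had one, drawn as bars from the upstream to the downstream edge in bp from the annotated start, with the fold enrichment beside each bar and the first exons in black. The bars of SDG2-ZF in Col-0 end between 635 and 723 bp, whereas those of SDG2-ZF rdd end at 150 and 307 bp and begin farther upstream.

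Other chromatin readouts at FWA were compared with the H3K4me3 peaks. Acetylation of histone H3 lysine 14 (H3K14ac), a mark of active chromatin, had a peak at the FWA start in both SDG2-ZF libraries, from 13038411 to 13038769 (2.37-fold) and from 13038311 to 13038723 (1.95-fold), and in neither of the Col-0 libraries. The SDG2-ZF rdd library had no H3K14ac peak at the start but had one in the gene body, from 13040812 to 13041807 (2.37-fold), and both Col-0 libraries also had peaks in that part of the gene. The histone variant H2A.Z had a start peak in 1 of 3 SDG2-ZF libraries (replicate 1, 4.16-fold, 900 bp wide), in the SDG2-ZF rdd library (2.95-fold, 191 bp wide) and in neither Col-0 library nor the rdd library. Myc-tagged ROS1 had a start peak in 1 of 2 libraries of ROS1xSDG2-ZF plants (replicate 1, 1.99-fold) and in neither library of plants with Myc-ROS1 alone. With 1 library each for SDG2-ZF rdd in H3K14ac and H2A.Z, these differences have no replicate check.

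The baseline of the background-specific segments was then examined. Of the 300 rdd-specific segments, 124 (41.3%) had no baseline peak, 93 (31.0%) had one in an rdd library only, 8 (2.67%) in a Col-0 library only, and 75 (25%) in both backgrounds. Of the 115 Col-0-specific segments, 49 (42.6%) had no baseline peak, 59 (51.3%) had one in a Col-0 library only, 4 (3.48%) in an rdd library only and 3 (2.61%) in both. Most of the segments that set SDG2-ZF plants of one background apart from those of the other were therefore covered by a peak in an untransformed plant as well. Of the 16256 common segments, 12371 had a peak in all 4 baseline libraries.

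**Figure D2:**
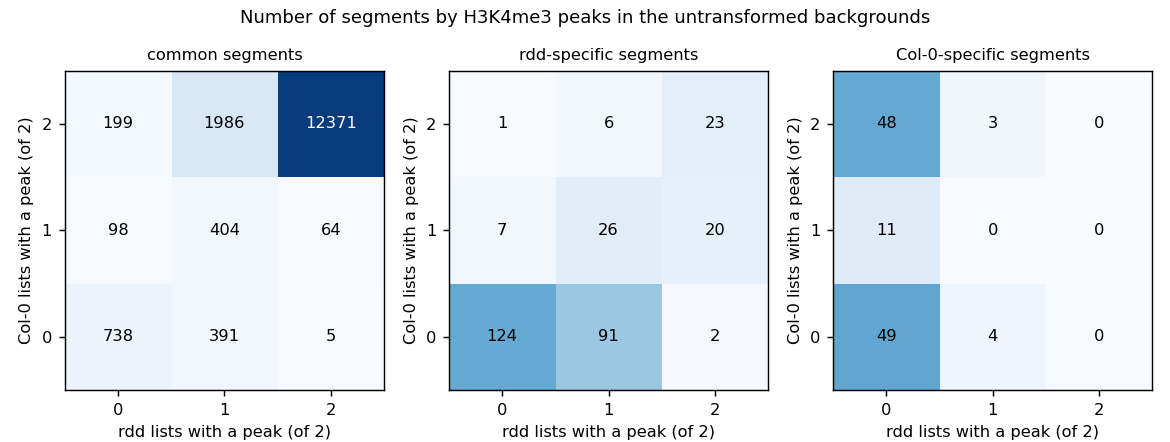
Number of common, rdd-specific and Col-0-specific segments by how many of 2 Col-0 libraries (vertical) and 2 rdd libraries (horizontal) had an overlapping H3K4me3 peak, with darker shades for a larger share of the class. The count in the lower left corner of each panel is that of the new segments (738, 124 and 49), and 48 of the Col-0-specific segments had a peak in both Col-0 libraries and in no rdd library.

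Segments that were rdd-specific although both backgrounds had baseline peaks coincided with places where an antibody without a target also gave peaks. The anti-Myc library of untagged Col-0 plants of set 6 had 808 peaks, which lay over 60 of these 75 segments (80%), over 3 of the 93 with a baseline peak in rdd only, and over 0 of the 124 new ones. The longest was 12203 bp, at chr3:14192957-14205159. Among all rdd-specific segments 23.3% lay in gene-poor windows, the 20% of 100-kb windows with fewest genes, against 7.20% of common segments and 7.26% of new rdd-specific ones. Without segments under an untagged peak, 237 of the 300 rdd-specific segments and 114 of the 115 Col-0-specific ones remained.

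New common segments, where all 5 SDG2-ZF lists had an H3K4me3 peak and none of the 4 baseline lists did, were short and low. Their median length was 287 bp (quartiles 211 and 412 bp), against 684 bp for common segments with a peak in all 4 baseline libraries. Their peaks ranked low in each list, at a median percentile of 10.8, 22.2 and 15.9 in the SDG2-ZF libraries and 24.9 and 16.3 in the SDG2-ZF rdd libraries. The backgrounds overlapped, with means of 16.3 ± 5.71 (SD, n = 3) and 20.6 ± 6.05 (SD, n = 2) and an exact permutation p = 0.4. The number of new common segments depended on the number of peaks per list: with the 12992 peaks of smallest p-value in each list it was 49. The count was 349 with a minimum length of 300 bp, and 1124 when rdd replicate 1 was left out of the baseline.

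The shortening of the H3K4me3 peak seen at FWA in rdd was not seen across the new common segments. The median width of the peaks there was 379, 574 and 477 bp in the SDG2-ZF libraries and 529 and 580 bp in the SDG2-ZF rdd libraries. The mean was 476 ± 97.3 bp (SD, n = 3) in the Col-0 background and 554 ± 36.1 bp (SD, n = 2) in rdd, a difference of 77.7 bp toward wider peaks in rdd that was within the spread (exact permutation p = 0.4). Relative to the width at common segments with all baseline peaks, it was 0.610 ± 0.111 and 0.652 ± 0.0319 (exact p = 0.7).

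By position, 30.5% of the new common segments (95% Wilson interval 27.3 to 33.9%) were centred no more than 500 bp from where a protein-coding gene begins and 57.5% (53.9 to 61.0%) in the rest of one, against 67.7% and 30.2% of the common segments with all baseline peaks. New rdd-specific segments were spread in like proportions, 30.6% (23.2 to 39.2%) and 60.5% (51.7 to 68.6%). New Col-0-specific segments were spread differently, with 24.5% (14.6 to 38.1%) at starts, 28.6% (17.8 to 42.4%) in the rest of coding genes, 12.2% in pseudogenes, 8.16% in other genes and 26.5% between genes. Intergenic stretches made up 6.37% of new common and 4.84% of new rdd-specific segments. These intervals cover counting error only. Median GC content was 43.4% at new common, 44.7% at new rdd-specific and 41.6% at new Col-0-specific segments. It was 40.7% at common segments with all baseline peaks, and the genome had 36.0%. The median number of CG dinucleotides per 100 bp was 2.92, 3.06 and 3.21 at the new classes. These values were above the 2.34 of the genome but below the 3.67 of common segments with all baseline peaks.

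Ordered by the percentile of the peak in its lowest library, the new common segments began with that at VIM4. This gene encodes a protein of the family that binds methylated CG sites and helps to maintain their methylation. The segment covered chr1:24586241-24586769, in coding sequence at the start of the gene. Its folds were 5.10, 6.69 and 5.46 in SDG2-ZF and 6.99 and 5.90 in SDG2-ZF rdd, so that the backgrounds overlapped. VIM genes are close relatives of each other, and the placement of reads between copies was not tested. At GRP23, which encodes a pentatricopeptide repeat protein, the segment of 950 bp at chr1:3365481-3366430 lay in the 3' part of the coding sequence, with folds of 4.16, 5.94 and 5.21 and of 6.09 and 5.44. At CHY1, a peroxisomal hydrolase gene, it lay upstream at chr5:26379550-26379955, with folds of 3.76, 4.46 and 4.15 and of 4.06 and 7.83.

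KAO2, a gibberellin biosynthesis gene, held a segment of 924 bp inside the gene at chr2:13775462-13776385, with folds of 3.89, 4.60 and 4.41 and of 3.51 and 4.63. The myosin gene XIB, AT2G35555, AT4G24810 and AT3G32047 completed the first 8, with folds between 3.17 and 5.82. The folds of the backgrounds overlapped at the named segments except at AT2G35555 and XIB, where both rdd folds were higher. Over whole lists the median fold was 3.82 to 4.48 in SDG2-ZF and 4.52 to 5.15 in SDG2-ZF rdd, so that folds of the backgrounds are on different scales.

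Segments were also read against fixed gene lists of 126 members. Of all nuclear genes 2.5% had a new common segment, 0.412% a new rdd-specific one and 0.166% a new Col-0-specific one. Among 16 flowering time genes 3 had a new common segment: FWA, MAF4 and MAF5, the last of which are relatives of the flowering repressor FLC. MAF4 had folds of 2.48, 3.52 and 2.53 in SDG2-ZF and of 4.11 and 3.34 in SDG2-ZF rdd, and MAF5 of 2.57, 2.45 and 2.18 and of 4.52 and 5.12. The MAF5 folds were higher in both rdd libraries than in any Col-0 background library, whereas the MAF4 groups overlapped. PHE1, an imprinted MADS-box gene of the endosperm, was the 1 of 7 imprinted genes with a new common segment (2.23, 2.93 and 2.38, and 2.58 and 2.45), and FUS3, a regulator of seed maturation, the 1 of 7 seed genes (2.08, 2.81 and 2.30, and 3.72 and 2.61). No new segment of any class lay at the 11 DNA demethylation genes or at the 3 known demethylase targets of the lists.

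SDG2 itself (AT4G15180) had a new common segment of 577 bp at chr4:8658285-8658861, in coding sequence far from its start. The peak there had folds of 4.19, 1.43 and 4.51 in SDG2-ZF and of 4.76 and 4.48 in SDG2-ZF rdd, and no baseline library had it. The construct carries a copy of this part of the gene, and H3K4me3 on the transgene and on the endogenous gene cannot be told apart. The peak at the start of SDG2 was present in all 9 libraries.

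New rdd-specific segments were the shortest, with a median of 219 bp (quartiles 160 and 290 bp). Their peaks were among the lowest of each list, at a median percentile of 11 and 6.78 in the 2 SDG2-ZF rdd libraries. Of the 124, 17 lay within 200 bp of a peak of a Col-0 background library and 70 lay more than 1 kb from any, with a median of 1238 bp. Ordered by the percentile of the peak in its lowest library, the first 8 were at NAC046, AT1G62610, AT5G45540, AT1G43680, AT2G43930, AT2G46290, an intergenic stretch at chr3:16718032-16718705 and FANCM. NAC046, a transcription factor gene linked to leaf senescence, had folds of 2.88 and 6.84 at chr3:1053837-1054147, 177 bp from the nearest peak of the Col-0 background. AT1G62610 had folds of 2.68 and 5.96, 79 bp from such a peak. FANCM, which encodes a helicase that limits meiotic crossing-over, had folds of 2.67 and 2.34 at chr1:13090043-13090210, 5100 bp away. AT5G45540, AT2G43930 and AT2G46290 lay 189, 155 and 103 bp from a peak of the Col-0 background. AT1G43680 and the intergenic stretch lay 3818 and 13145 bp from one. Each fold is that of the highest peak over the segment, and such a peak can extend beyond the segment.

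Genes that are active in every cell were among them: 2 of 10 housekeeping genes had a new rdd-specific segment, ACT2 (actin; 2.18 and 5.39) and UBC9 (a ubiquitin-conjugating enzyme; 2.05 and 6.89). In both, as in NAC046 and AT1G62610, the fold was higher in replicate 2. NRPE1, which encodes the largest subunit of the RNA polymerase V of RNA-directed DNA methylation, had a new rdd-specific segment of 256 bp with folds of 2.67 and 1.67. DDM1, a chromatin remodeller needed for DNA methylation, had an rdd-specific segment of 110 bp (2.85 and 1.63) that rdd replicate 1 also had (2.14). The count of 124 new rdd-specific segments was sensitive to single libraries: it was 1064 without SDG2-ZF rdd replicate 2, 351 without SDG2-ZF rdd replicate 1, 346 without SDG2-ZF replicate 2, and 208 without rdd replicate 1 in the baseline.

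New Col-0-specific segments had a median length of 266 bp (quartiles 206 and 408 bp). Of the 49, 7 lay within 200 bp of a SDG2-ZF rdd peak and 28 more than 1 kb from one. The segment with the highest peaks was at AT5G20750, a pseudogene. It covered chr5:7027763-7028479, with folds of 4.65, 6.49 and 4.92 in SDG2-ZF, and the lowest rank of its peak in any of these libraries was the 68.5 percentile. The nearest SDG2-ZF rdd peak was 1261 bp away. This segment had an H3K14ac peak in 2 of 2 SDG2-ZF libraries, in 0 of 2 Col-0 libraries and in neither the SDG2-ZF rdd nor the rdd library.

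The next in order were the long noncoding RNA genes AT1G07627 (folds 2.70, 4.15 and 2.82) and AT2G05914 (2.56, 4.54 and 2.87), with peaks at the 23.7 and 21.4 percentile in their lowest library. They were followed by intergenic stretches at chr3:8547432-8547859 and chr2:1715202-1715665, the upstream region of ABCG11, a transporter gene of cuticle lipids (2.48, 3.70 and 2.58), the pseudogene AT2G35590, and the region upstream of AT2G06815. All 8 had an H3K14ac peak in 2 of 2 SDG2-ZF libraries, but 3 of the 8 also had one in a Col-0 library and 5 of the 8 in the SDG2-ZF rdd library. The gene assigned to the segment was protein-coding for 59.2% of new Col-0-specific segments, 89.2% of new common and 91.9% of new rdd-specific ones. The count of 49 was 110 without SDG2-ZF rdd replicate 1, 137 without SDG2-ZF rdd replicate 2 and 108 without SDG2-ZF replicate 1.

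The readouts that had not been used to define the segments were compared over each class. At new Col-0-specific segments H3K14ac peaks were present at 65.3 and 67.3% of segments in the SDG2-ZF libraries and at 20.4 and 26.5% in the Col-0 libraries. The groups were apart, with a difference of 42.9 percentage points (66.3 ± 1.44%, SD, n = 2, against 23.5 ± 4.33%, SD, n = 2), although the exact permutation p of 0.333 was the smallest that 2 against 2 libraries can give. The difference was 10.6 points at new common segments (50.5 ± 0.671% against 39.8 ± 3.45%, n = 2 each, exact p = 0.333), again without overlap. At new rdd-specific segments it was 4.44 points, with overlapping groups (46.0 and 46.8% against 37.1 and 46.8%, exact p = 1). At common segments with all baseline peaks it was 1.33 points. As an alternative, H3K4me3 lists were cut to 12992 peaks each and H3K14ac lists to 22435, and the segments were called anew. Over the smaller classes so formed, the difference was -3.06 points at new common segments and 45.7 points at new Col-0-specific segments.

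The single SDG2-ZF rdd library for H3K14ac had peaks at 34.7% of new Col-0-specific segments (95% Wilson interval 22.9 to 48.7%), below both SDG2-ZF libraries in Col-0, at 58.9% of new rdd-specific segments (50.1 to 67.1%), above both, and at 51.4% of new common segments. The order of the backgrounds was thus that of H3K4me3 at both kinds of specific segments. This rests on 1 rdd library of set 7 against libraries of set 3, and set and background cannot be told apart. The rdd library for H3K14ac had 5635 peaks, which covered 39.5% of the common segments with all baseline peaks against 97.4% or more in the other lists, and 2.44, 4.84 and 0% of the new common, new rdd-specific and new Col-0-specific segments. Its low number of peaks moves with these shares, and no comparison with it was made.

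H2A.Z peaks did not separate the groups beyond their spread. The difference between 3 SDG2-ZF and 2 Col-0 libraries was 10.1 points at new common segments (54.5 ± 15.7% against 44.4 ± 7.28%, exact permutation p = 0.5), 1.88 points at new rdd-specific (exact p = 1) and 11.9 points at new Col-0-specific segments (exact p = 0.4). Within set 4 the shares of new common segments were 50.4 and 41.3% in SDG2-ZF and 49.6% in Col-0, and within set 5 they were 71.8 and 39.3%, so that the difference was not of 1 direction within sets. The SDG2-ZF rdd library had H2A.Z peaks at 70.1, 67.7 and 51.0% of the 3 classes and the rdd library of the same set at 37.4, 46.0 and 12.2%. At common segments with all baseline peaks these libraries had 72.2 and 59.2%. The lists held 30556 and 21066 peaks, and the part of this in the difference was not tested.

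Myc-ROS1, the tagged demethylase, had more peaks over new common segments in plants that also carried SDG2-ZF, in these libraries. At new common segments they were present at 33.1 and 16.4% in the ROS1xSDG2-ZF libraries and at 12.3 and 7.59% in the ROS1 libraries, a difference of 14.8 points without overlap (24.7 ± 11.8% against 9.96 ± 3.35%, n = 2 each, exact permutation p = 0.333, the smallest possible). Within set 4 the values were 33.1 and 12.3% and within set 7 they were 16.4 and 7.59%, so that the direction held in both sets. At common segments with all baseline peaks the difference was -0.271 points (25.7 ± 11.7% against 26.0 ± 0.863%). At new rdd-specific segments the difference was 8.47 points and at new Col-0-specific segments 12.2 points, both with overlapping groups (exact p = 0.667). Without ROS1xSDG2-ZF replicate 1 the latter was -1.02 points. The untagged library covered at most 1 of the new segments of any class.

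**Figure D3:**
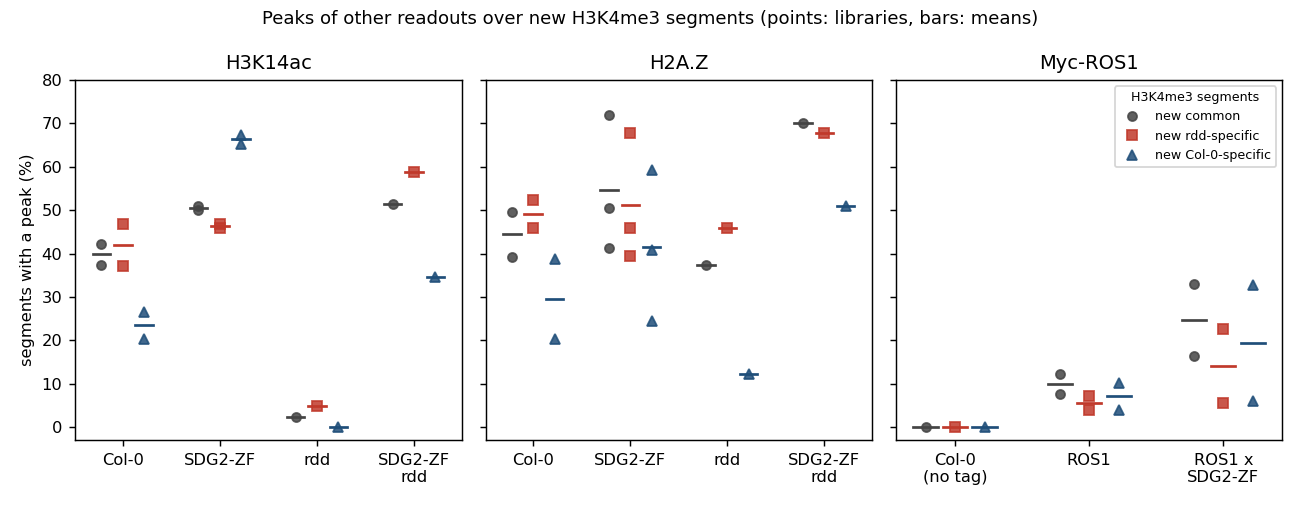
Percent of new common, new rdd-specific and new Col-0-specific H3K4me3 segments with a peak of H3K14ac, H2A.Z or Myc-ROS1 in each library (points), with group means as bars. The new Col-0-specific segments stand at 65.3 and 67.3% for H3K14ac in SDG2-ZF, at 20.4 and 26.5% in Col-0 and at 34.7% in SDG2-ZF rdd.

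The new segments were also covered, in part, in H3K4me3 lists of other plants of the series. Over 20 such lists the share of new common segments with a peak was 4.61% at the lowest, 10.4% at the median and 47.8% at the highest. It was 0, 10.5 and 35.5% for new rdd-specific and 2.04, 14.3 and 36.7% for new Col-0-specific segments. The 2 SunTag-SDG2 rdr6 libraries covered 28.2 and 26.8% of new common, 22.6 and 30.6% of new rdd-specific and 32.7 and 36.7% of new Col-0-specific segments, against 12.3 and 14.1%, 20.2 and 20.2%, and 8.16 and 14.3% in rdr6. The library of SunTag-SDG2 without guide in rdr6 covered 9.76, 12.1 and 6.12% of the classes. The SunTag-SDG2 rdr6 lists held 18203 and 18013 peaks, the rdr6 lists 16188 and 16578 and the list without guide 16090. The part of list length in these shares was not tested. The highest shares of new common and new rdd-specific segments came from libraries of set 11. Among these, the 2 libraries labelled Col-0 had 28847 and 22285 peaks and covered 47.8 and 33.1% of new common and 34.7 and 24.2% of new rdd-specific segments. Many segments without a peak in the 4 baseline libraries were therefore called in further Col-0 libraries with longer lists.

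**Figure D4:**
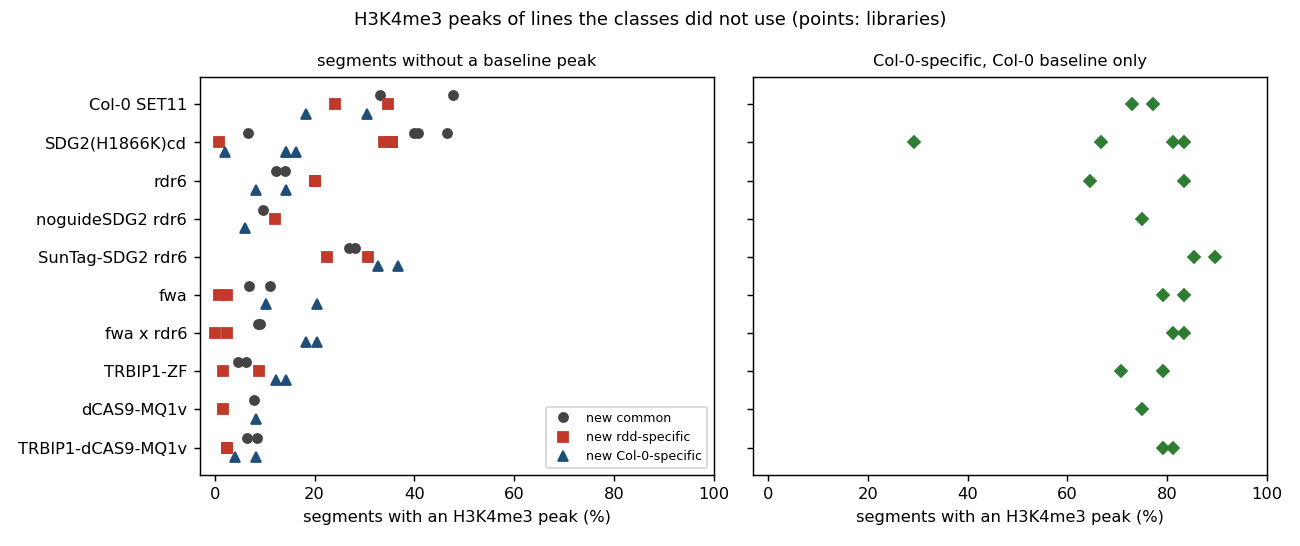
Percent of segments with an H3K4me3 peak in 20 libraries that were not used to define the classes, each point a library, for the new segments (left) and for Col-0-specific segments with a peak in both Col-0 and in no rdd baseline library (right). The latter were covered at 64.6 to 89.6% in 19 of the 20 libraries, whereas new segments were covered at 47.8% or less.

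The last group was the 48 Col-0-specific segments with a peak in both Col-0 libraries and in neither rdd library. That these segments separate the backgrounds with and without the transgene follows from this definition and is not a result. They were longer than new segments (median 463 bp) and were covered at 64.6 to 89.6% in 19 of 20 H3K4me3 lists of other lines, and at 29.2% in SDG2(H1866K)cd replicate 3, whose list was short. At these segments H3K14ac peaks were present at 72.9 and 79.2% in Col-0, at 83.3 and 83.3% in SDG2-ZF and at 39.6% in SDG2-ZF rdd, a library that covered 98.9% of common segments with all baseline peaks. The SDG2-ZF rdd value rests on 1 library.

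These 48 segments were not spread evenly. Chromosomes 2 and 3 held 17 each and together 70.8% of them, against 35.1% of common segments, 32% of rdd-specific segments and 44.9% of new Col-0-specific segments. These chromosomes make up 36.2% of the nuclear genome and carry ROS1 and DML2. Chromosome 4, which carries DML3, held 6 of the 48 (12.5%), against 15.6% of the genome. The segments on chromosome 3 had a median distance of 1.64 Mb from DML2, with 11 of 17 (64.7%) within 2 Mb, against a median of 5.59 Mb and 24.9% within 2 Mb for common segments of that chromosome. Those on chromosome 2 had a larger median distance from ROS1 than common segments of that chromosome, 5.10 against 3.53 Mb. Within 2 Mb, the limit used for DML2, their share was smaller, 11.8 against 29.0%. It was also smaller within 1 Mb (5.88 against 14.1%) and within 5 Mb (47.1 against 65.9%). Only within 8 Mb, the widest limit read, was it larger, 94.1 against 83.7%. These distances were not tested. Among them were ESM1, which shapes the products of glucosinolate breakdown, with a segment of 1744 bp at chr3:4729801-4731544 (folds 3.68, 5.26 and 3.77 in SDG2-ZF, 2.13 and 3.11 in Col-0), the epoxide hydrolase gene SEH (5.08, 6.85 and 4.85, and 7.20 and 7.70) and the receptor-like gene RLP34 at chr3:3452310-3453806 (4.60, 5.11 and 4.82, and 6.54 and 6.73), all chosen after their values were seen. JMJ14, an H3K4 demethylase gene, also had such a segment, of 176 bp (1.97, 1.80 and 2.04, and 2.30 and 2.73). However, the JMJ14 segment lay under a peak of the untagged anti-Myc library. Its peak ranked at the 4.26 percentile in its lowest SDG2-ZF library, and no H3K14ac or H2A.Z list had a peak over it. The grouping was defined after the data had been seen, and without SDG2-ZF rdd replicate 2 the count was 193, of which 38.9% were on chromosomes 2 and 3.

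**Figure D5:**
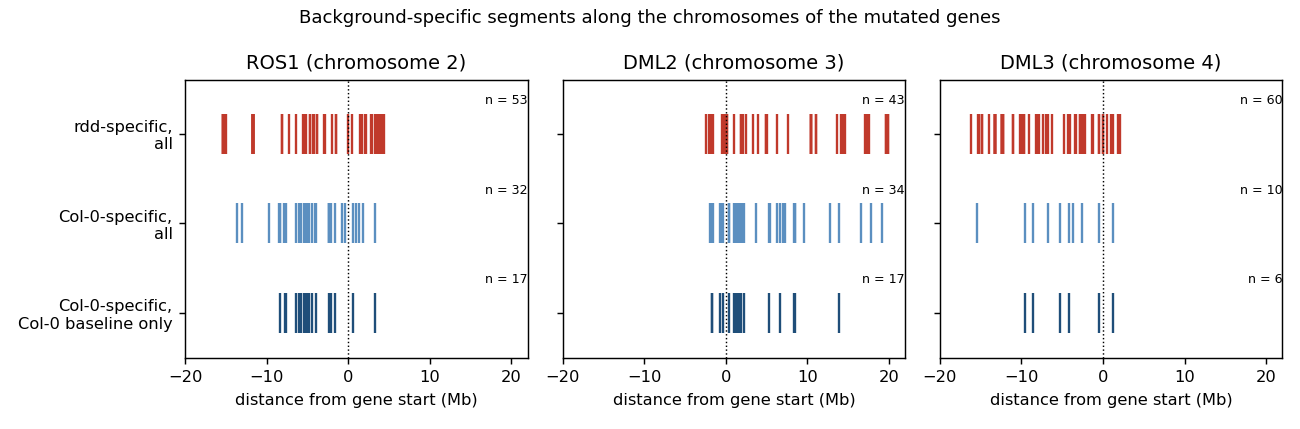
Positions of background-specific segments along the chromosomes of ROS1, DML2 and DML3, as the distance in Mb from the start of each gene, for all rdd-specific segments, all Col-0-specific segments and the Col-0-specific segments with a peak in both Col-0 and in no rdd baseline library. On chromosome 3, 11 of the 17 segments of the last kind lie within 2 Mb of DML2 (64.7%, against 24.9% of common segments, which are not drawn).

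The counterpart, rdd-specific segments with a peak in both rdd libraries and in no Col-0 library, numbered 2: NAC084, a transcription factor gene, at chr5:4518073-4518518 (2.77 and 2.27 in SDG2-ZF rdd, 3.04 and 3.01 in rdd), and an intergenic stretch at chr2:19698102-19698267. A further 91 had a peak in 1 of 2 rdd libraries and in no Col-0 library. The count of 2 is limited by rdd replicate 2, whose list was the shortest of the baseline (12992 peaks). With that list left out, the group of 48 Col-0-specific segments above still numbered 48.

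The mutated genes themselves were examined last. ROS1 had a narrow peak near its start in the Col-0 background, 328, 337 and 347 bp wide in SDG2-ZF with folds of 2.09, 2.03 and 2.30, and 266 bp wide (1.85-fold) in 1 of 2 Col-0 libraries. In the mutant background the peak was wider and higher, 1060 bp (3.73-fold) and 1237 bp (6.11-fold) in SDG2-ZF rdd, and 1075 bp (3.99-fold) and 858 bp (4.19-fold) in rdd. A second peak, 6.68-fold in SDG2-ZF rdd replicate 2 and 10.9-fold in rdd replicate 1, touched the 3' end of the gene and lay mostly beyond it. No other list had a second peak overlapping the gene, and peaks lying wholly beyond its end were not examined. The peak near the start was wider and higher in each of the 4 libraries of the mutant background than in any Col-0 background library that had one. DML2 had a peak of 308 to 522 bp near its start in all 5 SDG2-ZF libraries, in both Col-0 libraries and in 1 of 2 rdd libraries. DML3 had a peak of 328 to 688 bp in all 5 SDG2-ZF libraries and both Col-0 libraries and in neither rdd library. Whether these peaks come from the mutant alleles themselves was not tested.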

How the data were processed

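Chromatin immunoprecipitation with sequencing was carried out on leaf tissue. The submitters' processing notes name Trim Galore 0.6.5 for trimming, Bowtie2 2.1.0 for alignment against TAIR10, SAMtools 1.9, deepTools 3.1.3, and MACS2 2.2.1 for peak calling, 1 list per library. The deposited lists give for each peak a fold enrichment (a ratio to background) and −log10 of its p-value and q-value, all by the authors' peak caller. The control library of each call is not given in the sources used here. The lowest −log10 q was about 1.3 in set 6 and 2 in sets 1 and 7, so that set 6 lists reach weaker peaks.

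Of the deposited lists, 47 were used, and 3 Myc-JMJ14 lists and the input libraries were not used here. Organelle peaks were left out (1297 of 852012 lines). Segments, overlaps and shares were computed in Python 3.11.15 with NumPy 2.4.6 and drawn with matplotlib 3.10.9, and the classes were checked on made-up lists, where 6 of 6 were recovered. Gene models and sequences are those of TAIR10.1 from RefSeq. Groups were compared by exact two-sided permutation of library labels, which cannot give less than 0.1 for 3 against 2 libraries or 0.33 for 2 against 2. Shares carry 95% Wilson intervals, which cover counting error only. Named segments were the 8 of each new class with the highest within-list percentile of fold in their lowest library, besides FWA and its neighbours, SDG2 and the members of 14 gene lists. Members and lists were chosen with earlier results of these data known. Alternatives were stricter q-values, equal numbers of peaks, a minimum length of 300 bp, 50% overlap, omission of gene-poor windows, omission of each library and a replicate block. Further alternatives, chosen after seeing the data, were omission of segments under an untagged Myc peak, and all alternatives for the FWA edge and for the Col-0-specific segments with baseline peaks in Col-0 only.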

Additional observations from a re-analysis of the deposited data

Results flagged for a closer look

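In the group of 4 H3K4me3 libraries labelled SDG2(H1866K)cd, replicate 3 lay far from the others at all classes of new segments. It had a peak over 6.64% of new common, 0.806% of new rdd-specific and 2.04% of new Col-0-specific segments, against 39.8 to 46.5%, 33.9 to 35.5% and 14.3 to 16.3% in the other libraries. Its list held 9647 peaks. The threshold for such a gap is one that chance passes in about 1 of 20 groups.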

How the results depend on the processing

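Of 237 values under an alternative, 201 kept their direction or stayed within 1.5 times the reported count, 27 counts or shares moved by more, 3 differences fell to 0 and 6 changed sign. The common segments stayed between 14513 and 16768 under the alternatives run on them. Requiring a −log10 q of 5 or more left 149 rdd-specific and 53 new rdd-specific segments. A minimum length of 300 bp left 111 rdd-specific, 62 Col-0-specific, 349 new common, 28 new rdd-specific and 21 new Col-0-specific segments. After cutting each list to its 12992 peaks of smallest p-value, 49 new common, 21 new rdd-specific and 23 new Col-0-specific segments were found. Leaving out each library in turn gave 320 to 1425 rdd-specific, 143 to 566 Col-0-specific, 743 to 1124 new common, 124 to 1064 new rdd-specific and 49 to 137 new Col-0-specific segments. Fewer lists required or fewer lists compared make these counts larger by construction. For the differences in percentage points, the sign changed for H2A.Z at new rdd-specific segments (-1.26 with the stricter q, and -6.45 to 7.66 over omitted libraries), for H3K14ac at new common segments when H3K4me3 lists held 12992 and H3K14ac lists 22435 peaks each (-3.06), for H3K14ac at new rdd-specific segments (-0.403 to 9.27 over omitted libraries) and for Myc-ROS1 at new Col-0-specific segments (-1.02 to 25.5). The difference was 0 at new rdd-specific segments for H3K14ac with those shorter lists and with 300 bp, and for Myc-ROS1 without ROS1xSDG2-ZF replicate 1 (0 to 16.9 over omitted libraries). The cause was not tested. No rank or edge of the FWA peak could be given with 12992 peaks, where both SDG2-ZF rdd libraries lost the peak, or at 300 bp, since the stretch shared by all 5 libraries is 235 bp.

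Same-numbered libraries of the backgrounds did not deviate together (correlations of 0.0207 and -0.0345 over 12371 segments), so the numbers do not pair them. With a replicate block the difference in FWA percentile was -37.7 and in width at new common segments 77.8 bp. A block over numbers 1 and 2 only leaves out SDG2-ZF replicate 3 for the counts and so is no check of pairing. It gave 413 rdd-specific, 143 Col-0-specific, 785 new common, 170 new rdd-specific and 71 new Col-0-specific segments. Read depth, which differs between libraries, limits what a missing peak can show.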
